A study of Mus musculus with 8 samples.

Results

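Integrins are the receptors with which a fibroblast-like cell grips the matrix, and 10 genes that encode integrin subunits were followed here out of the 31053 genes counted. They were taken as a list by function, set with earlier results of these data known: the collagen-binding chains Itga1 and Itga11, the laminin-binding chain Itga7, the chains Itga4, Itga5, Itga8 and Itgav that bind fibronectin and related ligands, and the beta chains Itgb1, Itgb3 and Itgb5. All 10 were found by Ensembl identifier, 9 of them had at least 1 count, and 6 had enough counts to be tested.

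The cells were fibro/adipogenic progenitors (FAPs), the mesenchymal cells of skeletal muscle that lay down matrix and can turn into fat cells. They came from hind limb muscles of 45-day-old C57BL/10ScSn-Dmdmdx/J (mdx) mice, which lack dystrophin and model muscular dystrophy. Cells without surface CD45 or CD31 were sorted as ITGA7- SCA-1+ and divided into a fraction with high and a fraction with low surface SCA-1. These fractions (SCA1-High-FAPs, SCA1-Low-FAPs) were grown for 5 days in medium with fetal bovine serum before RNA was taken, with 4 samples of each, and the question was how these cell states differ in their transcripts. Both states are dystrophic, since every sample came from mdx mice, and nothing here compares them with healthy muscle. The RNA is that of cultured cells, so the levels are those after growth on plastic in serum. The study's description names 4 mice as the source of all 8 samples without saying whether equal replicate numbers mean the same mouse, so p-values measure the spread between these samples. In both states Y-linked genes were counted only in replicates 1 and 2 and Xist only in replicates 3 and 4, so that sex matched by number. The main test did not pair samples, and a fit with the number as a block is given at the end.

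An integrin is a pair of an alpha and a beta chain. Itgb1 encodes the beta chain that most alpha chains need, whereas the chains encoded by Itgb3 and Itgb5 pair with the product of Itgav. The alpha chain sets much of the choice of ligand: the products of Itga1 and Itga11 bind collagens, that of Itga5 binds the RGD motif of fibronectin, and that of Itga7 binds laminin on muscle cells. Integrins with the Itgav chain also bind vitronectin and can release TGF-beta from its latent complex, and the integrins of fibroblasts pass force from the matrix to the actin cytoskeleton.

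The chains differ outside the cell in what they bind and inside the cell in short tails. The tails are shown because they link the chains, whatever these bind outside, to adhesion proteins whose genes are counted further on. The coding sequences were taken from GENCODE M21 on GRCm38, 5′ to 3′ on the coding strand and without the stop codon. For alpha chains the stretch starts at the membrane, with the codons of the conserved GFFKR site in capitals, and for beta chains it is the end of the coding sequence, with the codons of each NPxY site, which binds talin and kindlin or related proteins, in capitals.
Itga1 (chr13:114960093-114960131, minus strand): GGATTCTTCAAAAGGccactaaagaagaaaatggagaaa
Itga11 (chr9:62782631-62782696, plus strand): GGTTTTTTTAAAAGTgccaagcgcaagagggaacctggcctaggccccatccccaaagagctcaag
Itga5 (chr15:103345272-103345349, minus strand): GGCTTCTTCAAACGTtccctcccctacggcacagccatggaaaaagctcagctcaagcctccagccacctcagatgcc
Itgav (chr2:83803243-83803332, plus strand): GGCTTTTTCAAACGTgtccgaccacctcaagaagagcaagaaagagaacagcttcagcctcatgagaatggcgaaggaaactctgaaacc
Itgb1 (chr8:128726178-128732085, plus strand, across an intron): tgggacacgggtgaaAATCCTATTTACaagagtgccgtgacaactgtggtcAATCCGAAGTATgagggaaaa
Itgb5 (chr16:33947873-33948749, plus strand, across an intron): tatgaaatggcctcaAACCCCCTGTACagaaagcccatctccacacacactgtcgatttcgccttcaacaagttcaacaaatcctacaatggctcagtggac
From the GFFKR site on, the Itga1 tail is 13 codons long, against 22 in Itga11, 26 in Itga5 and 30 in Itgav. The GFFKR codons translate to that motif in Itga1, Itga5 and Itgav and depart from it in the last codon in Itga11. The Itgb1 stretch holds both of its NPxY sites, whereas the Itgb5 stretch holds a single exact match.

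The libraries capture the 3′ ends of mRNAs, so that long and short transcripts give about as many reads, and levels are given as normalised read counts (CPM, which make libraries of unequal depth comparable) without division by length. Where a 3′ end is missed by priming or annotation, a level is too low, and levels of different genes are compared only as such counts. Between 1880561 and 3985656 reads per sample fell on genes, and 3 counts, taken as the least that can be seen, corresponded to 0.788 to 1.62 CPM (counting error only). The cell states were compared by edgeR's quasi-likelihood test, so that a positive log2 fold change means more mRNA in SCA1-Low-FAPs. A gene was called at a Benjamini-Hochberg adjusted p under 0.05 over all 10181 tested genes and a log2 fold change above 0.5 or below −0.5. The median log2 fold change of all tested genes was 0.000291.

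The gene of the sorted antigen went against the labels after culture. Ly6a, which encodes SCA-1, stood at 488.6, 784.1, 640.2 and 913.6 CPM in SCA1-High-FAPs against 1093.6, 1074.1, 1149.7 and 1008.7 CPM in SCA1-Low-FAPs, with a log2 fold change of 0.61 ± 0.17 (SE, edgeR adjusted p = 0.0341). That call was lost in 7 of the 8 fits that left out a sample, and Ly6a has close relatives in the genome that may share its reads. The labels therefore name the surface level at the sort, and every direction below is that of samples labelled in this way. The FAP marker Pdgfra was present in both states (221 ± 51.9 and 167 ± 14.1 CPM, SD, n = 4), and a log2 fold change of −0.41 was not called (edgeR adjusted p = 0.159).

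Other cell markers also moved with the states. All 8 cycling cell genes were called higher in SCA1-Low-FAPs, a direction in which 3.32% of all tested genes were called. Their summed levels were 570.6 to 796.6 CPM in SCA1-High-FAPs against 1135 to 1683 CPM in SCA1-Low-FAPs. These are mRNA levels at the end of 5 days of culture, not growth rates. The 7 adipocyte genes summed to 1072 to 5603 CPM in SCA1-High-FAPs against 131.8 to 663.5 CPM in SCA1-Low-FAPs, and Adipoq and Lipe were called. The 8 pericyte and smooth muscle genes summed to 482.7 to 1463 CPM and 1957 to 2975 CPM, in the same order, sums that are mostly Acta2. Acta2, Cspg4 and Myh11 were called higher in SCA1-Low-FAPs and Notch3 was called higher in SCA1-High-FAPs. The groups of Cspg4 overlapped. Notch3 had 27 to 30 counts in SCA1-High-FAPs samples against 6 to 18 in SCA1-Low-FAPs, and passed the filter on low counts only through SCA1-High-FAPs. The pericyte genes Rgs5, Kcnj8, Abcc9 and Mcam were too sparse to test. The 8 FAP markers summed to 7964 to 10670 CPM and 6917 to 10200 CPM, sums that are mostly Col1a1. Of the 8, 3 were called, against 7.68% of all tested genes. Ly6a and Thy1 (268 and 427 CPM, log2 fold change 0.67, edgeR adjusted p = 0.0105) were higher in SCA1-Low-FAPs. The decorin gene Dcn (586 and 139 CPM, log2 fold change −2.08, adjusted p = 0.0167) was higher in SCA1-High-FAPs. The 7 tendon and cartilage markers summed to 450.7 to 737.8 CPM and 577.4 to 765.3 CPM, with Acan at 0. Markers of other lineages were sparse. The 8 myogenic genes summed to at most 14.0 CPM in any sample, with Pax7, Myf5, Myod1 and Myog at 0, and the 7 endothelial genes to at most 16.6 CPM, with Emcn and Cldn5 at 0. The 8 leucocyte genes summed to 23.0 to 42.7 CPM in SCA1-High-FAPs against 6.73 to 15.8 CPM in SCA1-Low-FAPs, most of it Lyz2, with Adgre1, Itgam, Cd52 and Tyrobp at 0. The 6 Schwann cell genes summed to 7.19 to 41.9 CPM and 2.17 to 4.42 CPM. The part of cell cycle, fat cell differentiation or other cells in the integrin differences was not tested, and in these bulk samples fewer expressing cells and less mRNA per cell cannot be told apart.

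Of the integrin members, the collagen receptor chain Itga1 was higher in SCA1-High-FAPs and the fibronectin receptor chain Itga5 was higher in SCA1-Low-FAPs. The call of Itga5 was lost in 2 of the 8 fits that left out a sample. The other tested members, Itga11, Itgav, Itgb1 and Itgb5, were not called, and Itgav too is among the chains that bind fibronectin and related ligands. Of the 6 tested members 2 were called, against 7.68% of all tested genes. Itga5 was the member called higher in SCA1-Low-FAPs, a direction in which 3.32% of tested genes were called. Itga1 was the member called higher in SCA1-High-FAPs, against 4.36% of tested genes. The same 2 members were those whose groups did not overlap, against 14.1% of tested genes. The median log2 fold change of the 6 tested members was 0.0665.

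**Figure D1:**
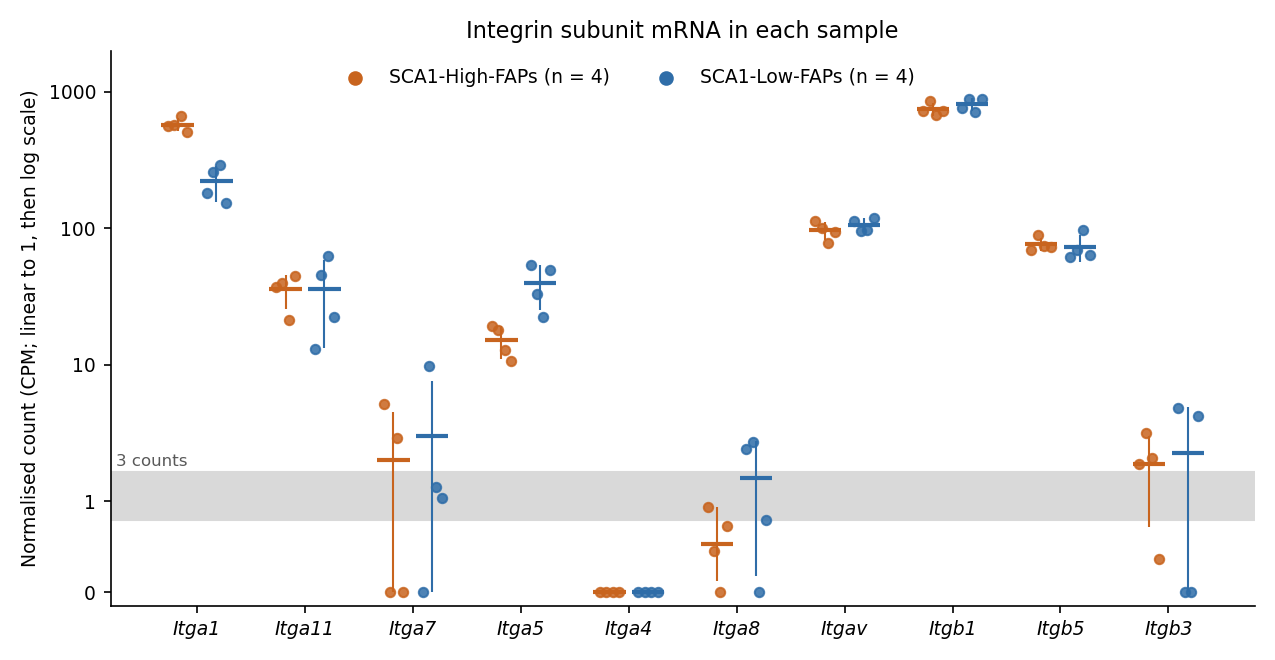
Normalised read count (CPM, linear up to 1 and logarithmic above) of the 10 integrin members in each of the 4 SCA1-High-FAPs and 4 SCA1-Low-FAPs samples, with the mean as a horizontal bar and 1 SD as a vertical line; the grey band is the level of 3 counts. Itga1 and Itga5 separate the cell states in opposite directions, Itgb1 is the most abundant member, and Itga4 is at 0 throughout.

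Itga1 (ENSMUSG00000042284, GRCm38 chr13:114953096-115101964, minus strand) encodes the alpha chain of a collagen receptor. Its level was 557.3, 569.3, 661.0 and 511.1 CPM in SCA1-High-FAPs against 181.2, 256.2, 291.7 and 152.8 CPM in SCA1-Low-FAPs. Every SCA1-High-FAPs sample lay above every SCA1-Low-FAPs sample, and SCA1-Low-FAPs replicate 3 came nearest to the other state. The means were 575 ± 62.8 and 220 ± 64.5 CPM (SD, n = 4), giving a log2 fold change of −1.38 ± 0.19 (SE, 95% interval −1.78 to −0.99, edgeR adjusted p = 0.000529). The call held in all 8 fits that left out a sample, with log2 fold changes from −1.56 to −1.25. The gene Pelo lies inside an intron of Itga1 and shares no exon bases with it, and Gm49395, which shares exon bases away from the 3′ end, had 0 counts.

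Itga11 (ENSMUSG00000032243, chr9:62677826-62783982, plus strand), the other collagen-binding chain among the members, was far lower and did not follow Itga1. It stood at 36.9, 40.0, 21.1 and 44.5 CPM in SCA1-High-FAPs against 13.0, 45.5, 62.8 and 22.3 CPM in SCA1-Low-FAPs. The groups overlapped over most of their range, with SCA1-Low-FAPs replicates 1 and 3 at its ends. The log2 fold change was 0.01 ± 0.41 (SE, 95% interval −0.87 to 0.89, edgeR adjusted p = 0.992), an interval that leaves room for a change of more than 0.5 either way.

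Itga5 (ENSMUSG00000000555, chr15:103344286-103366763, minus strand) encodes the alpha chain of the classical fibronectin receptor. Its level was 19.2, 18, 12.9 and 10.6 CPM in SCA1-High-FAPs against 53.8, 33.0, 22.4 and 49.4 CPM in SCA1-Low-FAPs. The groups did not overlap, but SCA1-Low-FAPs replicate 3 stood close to the highest SCA1-High-FAPs samples. With means of 15.1 ± 4.10 and 39.7 ± 14.6 CPM (SD, n = 4), Itga5 had a log2 fold change of 1.39 ± 0.32 (SE, 95% interval 0.72 to 2.06, edgeR adjusted p = 0.0116). This call depended on single samples: without SCA1-Low-FAPs replicate 1 the log2 fold change was 1.22 with an adjusted p of 0.054, and without SCA1-Low-FAPs replicate 4 it was 1.26 with an adjusted p of 0.0548.

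Itgav (ENSMUSG00000027087, chr2:83724397-83806916, plus strand), the alpha chain shared by the vitronectin receptors and by integrins that release TGF-beta, was similar in level in the cell states. It was counted at 112.7, 100.6, 78.0 and 94.1 CPM in SCA1-High-FAPs against 113.9, 95.3, 96.8 and 119.5 CPM in SCA1-Low-FAPs. The samples of the states were interleaved. Exon bases shared with Gm13684 on the opposite strand lie away from the 3′ end. The log2 fold change was 0.14 ± 0.17 (SE, 95% interval −0.21 to 0.50, edgeR adjusted p = 0.693).

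Itgb1 (ENSMUSG00000025809, chr8:128685654-128733200, plus strand), the common beta chain, was the most abundant member in every sample. Its level was 721.5, 856.9, 679.6 and 722.5 CPM in SCA1-High-FAPs against 767.2, 885.6, 708.2 and 885.5 CPM in SCA1-Low-FAPs. The ranges overlapped widely, and the log2 fold change was 0.12 ± 0.14 (SE, 95% interval −0.17 to 0.42, edgeR adjusted p = 0.684). The interval keeps any difference below 0.5 on the log2 scale, in contrast to that of its partner Itga1.

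Itgb5 (ENSMUSG00000022817, chr16:33829665-33949338, plus strand), a partner of Itgav, showed 69.7, 88.5, 73.8 and 73.3 CPM in SCA1-High-FAPs against 62.0, 69.3, 96.5 and 63.3 CPM in SCA1-Low-FAPs. Its log2 fold change of −0.07 ± 0.19 (SE, 95% interval −0.47 to 0.33, edgeR adjusted p = 0.893) was likewise not called, and here too SCA1-Low-FAPs replicate 3 stood above the rest of its group.

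**Figure D2:**
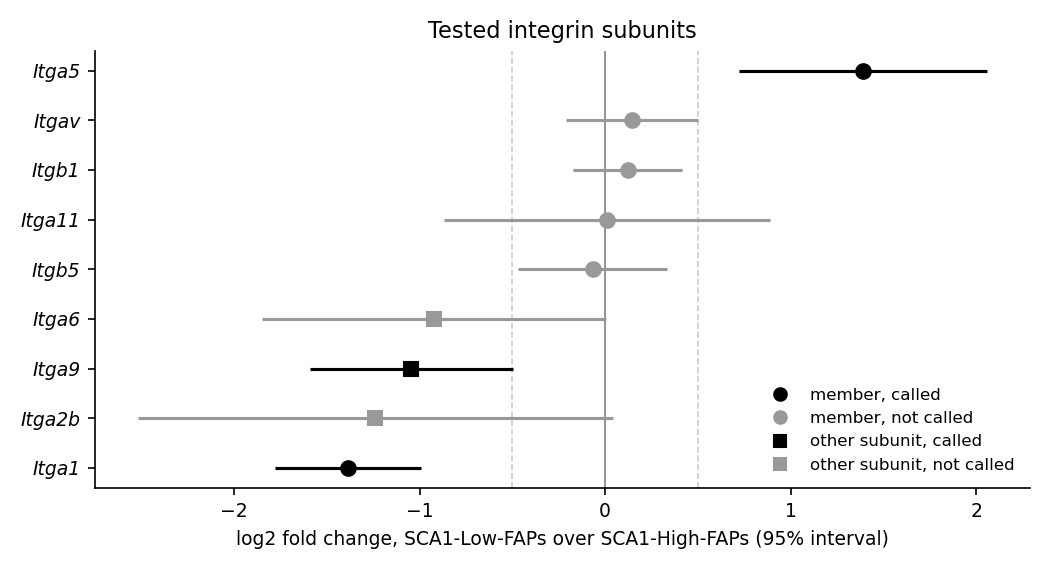
Log2 fold change between the cell states (horizontal axis, positive where SCA1-Low-FAPs are higher) for the 9 tested integrin subunits, with 95% intervals; circles are members, squares other subunits, black is called and grey not called, and dashed lines mark 0.5 in either direction. Itga1 (−1.38), Itga2b (−1.24), Itga9 (−1.04) and Itga6 (−0.92) lie to the left and Itga5 (1.39) to the right. The intervals of Itga2b, Itga6, Itgav, Itgb1, Itgb5 and Itga11 span 0.

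The remaining members were at or near the limit of the depth and were not tested. Itga4 (ENSMUSG00000027009), whose product binds VCAM-1 and fibronectin, had 0 counts in all 8 samples, which allows a level of up to 0.788 to 1.62 CPM depending on the sample. Its 3′ end shares exon bases with Cerkl on the opposite strand, which had 14 counts in all, and the strand setting of the counting is not given in the sources used here, so reads of this shared stretch could have been left unassigned.

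Itga7 (ENSMUSG00000025348), the laminin receptor chain whose surface protein was used to remove satellite cells before culture, had 11, 0, 7 and 0 counts in SCA1-High-FAPs against 0, 18, 4 and 4 counts in SCA1-Low-FAPs. Itga8 (ENSMUSG00000026768), a nephronectin receptor chain, had 2, 1, 0 and 2 counts against 5, 5, 0 and 3. Itgb3 (ENSMUSG00000020689), the other Itgav partner, had 4, 7, 5 and 1 counts against 10, 0, 0 and 16. In each of these genes the groups overlapped and at least 1 sample had no counts, so that a difference was not detectable at this depth.

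Ordered by mean level, SCA1-High-FAPs had Itgb1 first, followed by Itga1, Itgav, Itgb5, Itga11 and Itga5. The samples of neighbours in this order did not overlap, except for Itgav and Itgb5. In SCA1-Low-FAPs the order was Itgb1, Itga1, Itgav, Itgb5, Itga5 and Itga11, where Itgav and Itgb5 overlapped and Itga5 and Itga11 overlapped.

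The balance of alpha chain transcripts was described over all 18 alpha and 8 beta subunit genes. Itga1 held 65.1% ± 2.90 of the alpha subunit CPM in SCA1-High-FAPs against 44.6% ± 5.88 in SCA1-Low-FAPs (SD, n = 4). The share of Itga5 was 1.72% ± 0.479 and 8.70% ± 4.33, in the same order, and that of Itgav 11.01% ± 2.04 and 22.7% ± 6.22. The Itgav share differed while its level did not pass the test, because a share moves with the sum it is taken over. Summed alpha subunit CPM was 881 ± 58.6 in SCA1-High-FAPs against 486 ± 83.0 in SCA1-Low-FAPs. Without Itga1 the sums were 307 ± 11.5 and 266 ± 20.8 CPM, so that most of the gap was Itga1.

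On the beta side the shares differed by less than the larger SD. Itgb1 held 90.02% ± 0.386 of beta subunit CPM in SCA1-High-FAPs against 91.0% ± 2.36 in SCA1-Low-FAPs, and Itgb5 held 9.22% ± 0.412 and 8.29% ± 2.45. Alpha CPM per beta CPM was 1.08 ± 0.150 and 0.552 ± 0.125. Per sample, Itga1 CPM per Itga5 CPM ran from 29.1 to 51.4 in SCA1-High-FAPs against 3.10 to 13.0 in SCA1-Low-FAPs, without overlap. These are ratios of transcripts, not of receptors, and they restate the single-gene differences.

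**Figure D3:**
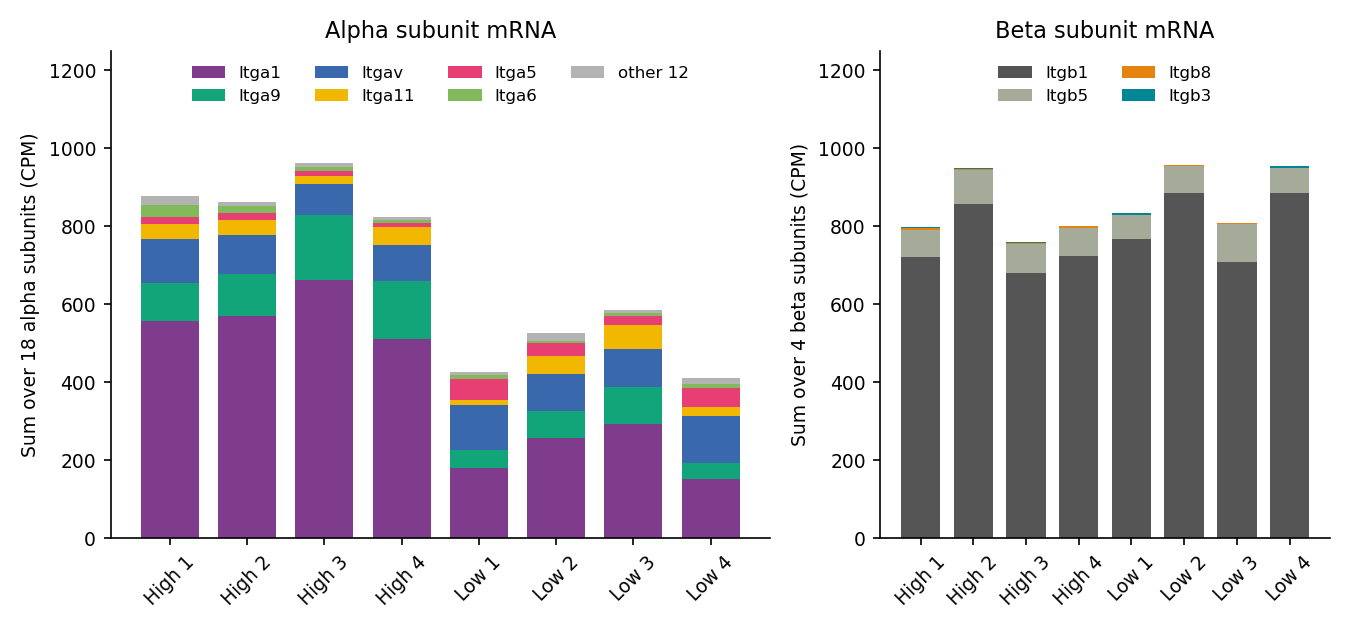
Summed normalised read count (CPM, bars from 0) of all alpha subunits (left) and of the beta subunits Itgb1, Itgb5, Itgb8 and Itgb3 (right) in each sample. The other beta subunits are not drawn. High 1 to 4 are SCA1-High-FAPs and Low 1 to 4 SCA1-Low-FAPs, with colours for the subunits. Alpha sums run from 823.5 to 962.4 CPM in SCA1-High-FAPs against 410.4 to 585 CPM in SCA1-Low-FAPs, mainly through Itga1, while the beta sums are mostly Itgb1 in every sample.

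Of the 16 integrin subunit genes outside the list, 13 had at least 1 count and 3 were tested. Of these 3, 1 was called, against 7.68% of all tested genes. Itga9 (ENSMUSG00000039115, chr9:118606690-118901003, plus strand), whose product pairs with that of Itgb1 and binds tenascin-C, SVEP1 and other ligands, was counted at 97.7, 106.9, 168.8 and 147.3 CPM in SCA1-High-FAPs against 46.1, 69.9, 95.5 and 41.2 CPM in SCA1-Low-FAPs. The groups did not overlap, although SCA1-Low-FAPs replicate 3 came close to the lowest SCA1-High-FAPs sample. The log2 fold change was −1.04 ± 0.26 (SE, 95% interval −1.59 to −0.50, edgeR adjusted p = 0.0208). The call was lost in 5 of the 8 fits that left out a sample (SCA1-High-FAPs replicates 3 and 4 and SCA1-Low-FAPs replicates 1, 2 and 4), with adjusted p from 0.0536 to 0.0784.

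The laminin-binding chain Itga6 stood at 31.3, 17.1, 9.12 and 8.38 CPM in SCA1-High-FAPs against 10.1, 6.50, 8.83 and 8.93 CPM in SCA1-Low-FAPs, with a log2 fold change of −0.92 that was not called (edgeR adjusted p = 0.238). Itga2b, known from platelets, had means of 6.58 and 2.78 CPM and was not called either (log2 fold change −1.24, edgeR adjusted p = 0.254). It passed the filter on low counts only through SCA1-High-FAPs, with 13 to 19 counts there against 3 to 15 in SCA1-Low-FAPs. Its groups did not overlap, as in 14.1% of all tested genes. The untested subunits with counts were Itga2, Itga3, Itga10, Itgad, Itgae, Itgb2, Itgb4, Itgb6, Itgb7 and Itgb8, none of which exceeded 8.88 CPM in any sample. The leucocyte chains Itgal, Itgam and Itgax had 0 counts throughout, and Gm49368, which shares exon bases with Itgam on the same strand, also had 0. Over all 26 subunits, 9 were tested and 3 were called, against 7.68% of all tested genes.

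The ligands were taken as lists with the members' roles in view. Among 20 genes for fibronectin and other ligands of RGD-binding, Itga4 or Itga9 integrins, 17 were tested, with a list median of −0.22. Of these 5 were called, all 5 higher in SCA1-High-FAPs, a direction in which 4.36% of all tested genes were called. Fn1, the fibronectin gene, stood at 2641.3, 2997.4, 2665.0 and 2986.8 CPM in SCA1-High-FAPs against 1541.7, 1976.5, 2240.8 and 1515.5 CPM in SCA1-Low-FAPs. Its groups did not overlap, and the log2 fold change of −0.64 ± 0.15 (SE, edgeR adjusted p = 0.0165) has the opposite sign to that of Itga5, which encodes a fibronectin receptor chain. The call of Fn1 was lost in 3 of the 8 fits that left out a sample.

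The others called were Ccn3, a matricellular protein gene (−1.68, edgeR adjusted p = 0.00762), Svep1, an Itga9 ligand gene (−0.74, adjusted p = 0.02), the elastic fibre gene Fbln5 (−0.67, adjusted p = 0.0215) and the periostin gene Postn (−0.58, adjusted p = 0.0286). Of these, the call held in all 8 fits that left out a sample for Ccn3 and was lost in 4 for Svep1, 3 for Fbln5 and 5 for Postn. Tnc, the tenascin-C gene, had nearly equal means of 758 ± 227 and 756 ± 197 CPM (SD, n = 4), and the Itga8 ligand gene Npnt, at 12.6 and 26.1 CPM, was not called (log2 fold change 1.03, edgeR adjusted p = 0.12). Tnc and Npnt were chosen for naming after their values were seen. Vtn, the vitronectin gene, was too sparse to test, at 4.94 ± 4.48 and 0.0788 ± 0.158 CPM, the latter below the level of 3 counts.

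Among 8 genes of the latent TGF-beta complex on which Itgav integrins act, 7 were tested. Of these 1 was called, against 7.68% of all tested genes. Lrrc32 encodes GARP, a membrane protein that holds latent TGF-beta on the cell surface. Its level was 64.1, 51.7, 37.3 and 52.9 CPM in SCA1-High-FAPs against 217.8, 202.0, 95.2 and 174.9 CPM in SCA1-Low-FAPs. All SCA1-Low-FAPs samples lay above all SCA1-High-FAPs samples, replicate 3 again being the lowest of its group, with a log2 fold change of 1.74 ± 0.24 (SE, edgeR adjusted p = 0.000612), and the call held in all 8 fits that left out a sample. Tgfb1 itself was low in both states (7.67 and 6.25 CPM, log2 fold change −0.26, edgeR adjusted p = 0.871), and Ltbp1, which ties latent TGF-beta to the matrix, was not called (0.27, adjusted p = 0.642). The list median was 0.27.

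All 11 collagen genes of the list were tested and 4 were called, against 7.68% of all tested genes. The chains of type VI collagen that are encoded side by side, Col6a1 (log2 fold change −1.36, edgeR adjusted p = 0.000672) and Col6a2 (−1.40, adjusted p = 0.000585), were higher in SCA1-High-FAPs, as was the fibrillar collagen gene Col3a1 (−1.03, adjusted p = 0.0294). Col6a3, the third chain of type VI collagen, was not called (0.26, adjusted p = 0.603), nor were Col1a1 (−0.20, adjusted p = 0.587) and Col1a2 (−0.36, adjusted p = 0.394), the most abundant genes of the list. These last 3 were named after their values were seen. The call higher in SCA1-Low-FAPs was that of Col2a1, a cartilage collagen gene (adjusted p = 0.0156), with 0, 0, 7 and 0 counts in SCA1-High-FAPs against 24, 23, 18 and 42 counts in SCA1-Low-FAPs. It passed the filter on low counts only through SCA1-Low-FAPs, so that its place among the called genes supports nothing about the list, and its fitted fold change, 3.26 to 7.71 on the log2 scale with a sample left out, is no measure of its size. The calls of Col6a1 and Col6a2 held in all 8 fits that left out a sample, whereas that of Col3a1 was lost in 6 of 8 such fits and that of Col2a1 in 2. The collagen list's median was −0.000269. Among 11 laminin chain genes 5 were tested and 0 were called by edgeR, against 7.68% of all tested genes (list median −0.16). DESeq2 called 0 as well. At that share, 0 calls among 5 genes say nothing particular about laminins. By edgeR 2 of these 5 had an unadjusted p under 0.05, Lama4 (−0.37, adjusted p = 0.122) and Lamb1 (−0.42, adjusted p = 0.211), both named after their values were seen. The groups of Lama4 did not overlap, as in 14.1% of all tested genes.

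The called genes among cytoplasmic partners of the tails and focal adhesion proteins lay in the other direction. Of 32 such genes 29 were tested and 5 were called, with a list median of 0.18. All 5 were higher in SCA1-Low-FAPs, a direction in which 3.32% of all tested genes were called. The 5 called genes of the list included Zyx, which encodes zyxin (1.06, edgeR adjusted p = 0.00149), and the actin crosslinker gene Actn1 (1.00, adjusted p = 0.00863). Also among them were the filamin gene Flna (0.63, adjusted p = 0.0284) and Tes, which encodes testin (1.42, adjusted p = 0.00342). The proteins of these genes work at the actin end of the adhesion or link it to filaments. The call of Flna was lost in 5 of the 8 fits that left out a sample, whereas those of Zyx, Actn1 and Tes held in all 8.

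The genes of this list that were chosen for naming whatever their result were not called. Tln1, whose talin binds the membrane-proximal NPxY site, had a log2 fold change of 0.20 (edgeR adjusted p = 0.502), and Fermt2, the kindlin gene of fibroblasts, 0.12 (adjusted p = 0.85). Ilk, which encodes integrin-linked kinase, stood at 0.07 (adjusted p = 0.855), and Ptk2, the focal adhesion kinase gene, at 0.28 (adjusted p = 0.544). Of 16 genes for membrane partners and other matrix receptors, 15 were tested, with a list median of 0.07. Among these 1 was called, against 7.68% of all tested genes. The called gene was the hyaluronan receptor gene Cd44, higher in SCA1-Low-FAPs (1.10, adjusted p = 0.0216). Its call was lost in 2 of the 8 fits that left out a sample. The tetraspanin gene Cd151, a partner of laminin-binding integrins, was not called (0.07, adjusted p = 0.851).

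**Figure D4:**
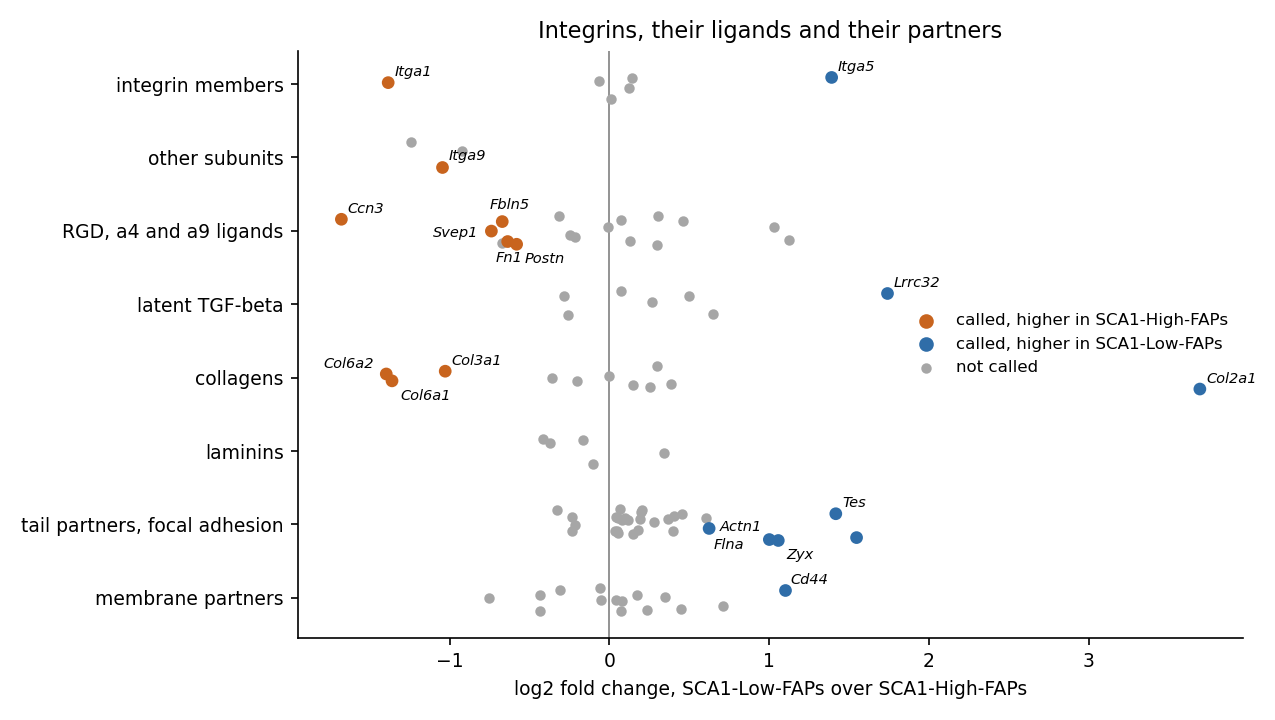
Log2 fold change between the cell states (horizontal axis, positive where SCA1-Low-FAPs are higher) of every tested gene in the integrin, ligand and partner lists (rows); each point is a gene, spread vertically for legibility, with called genes coloured and those given in the text named. The 5 called RGD, Itga4 and Itga9 ligand genes lie to the left and the 5 called focal adhesion genes to the right.

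Without SCA1-Low-FAPs replicate 1 or without SCA1-Low-FAPs replicate 4, the calls over the 4 ligand lists fell from 10 to 4, and those over all genes fell from 782 to 417 and 410. The calls over the adhesion partner lists were 6 with all samples and 4 to 7 with a sample left out. No set test was run on any list, and the counts stand beside the percentages of all tested genes given above.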

How the data were processed

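RNA of 4 SCA1-High-FAPs and 4 SCA1-Low-FAPs samples was made into QuantSeq 3′ mRNA libraries. Reads were trimmed by the authors, aligned to mm10 with STAR and counted on Ensembl genes with htseq-count, and the deposited values are raw counts per gene without normalisation. No molecular identifiers and no strand setting are named. Between 13.3% and 16.4% of the tallied reads fell on no feature and were left out. Of 31053 genes, 31011 matched GENCODE M21 (GRCm38) by identifier.

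Counts were compared with edgeR 4.0.16 under R 4.3.3 (robust quasi-likelihood test, TMM, filterByExpr with at least 10 counts and 15 in total, Benjamini-Hochberg adjustment over 10181 genes). Adjusted p-values come from edgeR except where stated. The SE is that of the log2 fold change, and intervals are 95%. Replicates of a state correlated at 0.907 to 0.950 (Pearson, log2 CPM), and no pair agreed within sampling noise. Alternatives were DESeq2 1.42.0, RLE factors, other filters, no fold limit, a replicate block and leaving out each sample.

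Members and lists were chosen with earlier results of these data known. Named genes were all subunits with a count, up to 6 called genes per list, Fn1, Vtn, Tgfb1, Ltbp1, Tln1, Fermt2, Ilk, Ptk2, Cd151, Ly6a and Pdgfra, and marker sums; some items these rules cover are not reported here. Tails were translated with biopython 1.88, and figures drawn with Python 3.11.15 and matplotlib 3.10.9.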

Additional observations from a re-analysis of the deposited data

Results flagged for a closer look

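Dixon's criterion at the 95% level was applied to 77 groups of 4 samples, over 52 named genes and subunits whose highest count in the group was at least 10, and 4 groups had a sample far from the others, about as many as chance gives at 1 group in 20. Itga7 stood at 9.75 CPM in SCA1-Low-FAPs replicate 2 and at 0 to 1.26 CPM in the other samples of that state. Itga2, a collagen-binding subunit outside the list, stood at 8.88 CPM in SCA1-High-FAPs replicate 1 and had at most 2 counts in each of the others. The focal adhesion gene Tes stood at 35.9 CPM in SCA1-Low-FAPs replicate 3 and at 65.9 to 69.3 CPM in the others. The latent TGF-beta binding gene Ltbp1 stood at 59.6 CPM in SCA1-Low-FAPs replicate 2 and at 36.3 to 39.9 CPM in the others.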

How the results depend on the processing

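Under DESeq2, RLE factors, no filter, a minimum of 10 counts in every sample, no fold limit and a replicate block in edgeR or DESeq2, 2 members and 1 other subunit were called, and Itga1, Itga5 and Itga9 kept their directions and calls. Over all genes 1065, 784, 1052, 729, 788, 697 and 838 were called under these settings, in that order. The log2 fold change of Itga11 turned to −0.01 with at least 10 counts in every sample and to −0.17 and −0.19 with a replicate block in edgeR and DESeq2, never called. Col3a1 lost its call without the filter (adjusted p = 0.0932). The 13 untested subunits with counts could be fitted by DESeq2 and without the filter, and 0 were called (lowest adjusted p 0.204 and 0.0954), with 1 gene, Itgb7, at an unadjusted p under 0.05 in each.

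Whether equal replicate numbers mark the same mouse is not stated. Sex matched by number, as Xist was counted only in replicates 3 and 4 of both states and Y-linked genes only in replicates 1 and 2. Same-numbered samples correlated at −0.0502 to 0.0067 once group means were removed. These correlations show no pairing by themselves and do not exclude it. With the number as a replicate block, edgeR called 697 genes, Itga1 stood at −1.42 (adjusted p = 0.000322), Itga5 at 1.35 (adjusted p = 0.0219) and Itga9 at −1.09 (adjusted p = 0.0101), while Postn (adjusted p = 0.0518) and Ly6a (adjusted p = 0.0573) were no longer called.

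With each sample left out in turn, 410 to 1017 genes, 1 to 2 members, 0 to 1 other subunits, 4 to 12 ligand genes and 4 to 7 adhesion partner genes were called. Log2 fold changes crossed 0 for uncalled genes only, from −0.43 to 0.28 for Itga11, −0.25 to 0.02 for Itgb5, −0.80 to 0.16 for Tgfb1 and −0.086 to 0.37 for Fermt2. Itga5 ranged from 1.22 to 1.58 and Itga9 from −1.34 to −0.89; both lay farthest from 0 without SCA1-Low-FAPs replicate 3. The cause of these shifts was not tested. Subunits under about 3 counts per sample cannot be compared at this depth.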
